A study of Danio rerio with 2 samples.

Results

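The change of the transcriptome between gastrulation and the hatching period was described in control zebrafish embryos (Danio rerio), that is, in embryos at 48 hours post fertilization (hpf) against embryos at 8 hpf. Both groups came from eggs that had received 10.3 ng of a control morpholino, a synthetic antisense oligonucleotide given as the injection control, and they are written MO-control in the labels. Embryos were raised at 28.5 C, and 200 ng of total RNA, extracted with Trizol, was labelled for each channel of a 2-colour Agilent array. The study itself asked what a morpholino that blocks translation of estrogen receptor beta2 mRNA (written MO2-ers2a, also 10.3 ng per embryo) does to embryos of these ages, and the MO2-ers2a RNA filled the Cy5 channel of both arrays. The comparison was chosen as the Cy3 channel alone, which held the MO-control RNA, so it uses 2 of the 4 RNA samples hybridised in the series. Neither the strain, nor the sequence of the control morpholino, nor the number of embryos and clutches behind each RNA is stated in these sources. Because the control embryos were injected too, they are not untouched embryos.

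There was 1 array per stage. No test between the stages was possible, no p-value is given, and no value below has an error between samples. Genes were therefore called by size alone: the 48 hpf signal had to be 4-fold or more above or below the 8 hpf signal, which is 2 or more on the log2 scale.

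A zebrafish embryo starts with RNA and protein that the mother put in the egg. The zygotic genome is then switched on by maternal factors such as Pou5f3, Nanog and the SoxB1 proteins, and during gastrulation Nodal, BMP, Wnt and FGF signals lay out the germ layers and the body axes. By the hatching period the somites have made working muscle, the heart beats, red cells circulate, the lens is clear, pigment cells are visible and neurons have joined in circuits.

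Of the 43839 spots that are not controls, 16902 (38.6%) had a Cy3 signal above background at both stages, 4561 (10.4%) at 48 hpf only, 3150 (7.19%) at 8 hpf only and 19226 (43.9%) at neither. A spot counted as measured when its background-subtracted signal was above that of the 153 negative controls (their mean plus 2.6 SD), a limit of 70.1 intensity units at 48 hpf and 59.9 at 8 hpf before normalization. Of the negative control spots themselves, 4 (2.61%) passed at 48 hpf and 1 (0.654%) at 8 hpf. The spots stand for 36029 genes and unnamed transcripts, of which 13453 were measured at both stages, 8019 of them with a current gene symbol. Signals below are normalized intensities, which show how a gene changed and cannot be set against those of another gene. Log2 values are differences, 48 hpf over 8 hpf. Where a gene had several spots, its difference is their median, and the signals given are those of the brightest spot measured at both stages. Over the 2746 genes with 2 or more spots, the pooled SD between spots of a gene was 0.54 on the log2 scale, which is technical spread and includes different probes.

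Similar numbers of genes were higher and lower at 48 hpf, but the largest differences lay on the higher side. Of the 13453 genes and transcripts, the 4-fold rule called 994 higher (7.39%) and 983 lower (7.31%). Every count of list members below is to be set beside these shares, and a count near them says nothing particular about a list. At 16-fold the counts were 279 higher and 98 lower, and at 64-fold 58 higher and 17 lower. The median difference was -0.35, and the middle 95% of genes ran from -2.78 to 3.68. At 2-fold, 2085 (15.5%) were higher and 3771 (28%) lower. Among 356 called genes with several spots, the spots lay to 1 side of 0 in 350 (98.3%), and each spot reached 4-fold in 250. Quantile normalization gives both stages the same distribution of signals, so every value is relative to the other transcripts of the array. The 10 E1A probes, which read Agilent's spike-in control RNA, had a raw Cy3 signal 1.04 lower (log2) at 48 hpf, with probes from -1.31 to -0.61. Scaling on these spikes moved the median of all genes to 0.86 and gave 2518 genes higher and 232 lower (91.6% of the calls higher, against 50.3%), so the balance of higher and lower genes, and the sign of small differences, rests on the scaling. Whether the same amount of spike-in was added to both RNAs is not stated. RNA came from whole embryos, so fewer cells of a type and less RNA per cell cannot be told apart.

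Gastrula and hatching-period genes are described first. Their lists were set with earlier results of these data known, so they are no independent check of the stage labels. Of 19 gastrula genes on the array, 11 were measured at both stages, all of these 11 were at least 2-fold lower at 48 hpf and 8 at least 4-fold lower, against 7.31% of all genes, and the other 8 were above background at 8 hpf only. noto, a homeobox factor of the notochord precursors, had 82.9 at 48 hpf and 8414 at 8 hpf, a 102-fold lower level. chrd, the BMP antagonist chordin of the organizer, had 126 at 48 hpf and 12065 at 8 hpf, 95.6-fold lower. Both were near the detection limit in 48 hpf embryos and bright in 8 hpf embryos. The ventral repressors vox and ved stood at -5.98 and -5.87 (log2), and the T-box factors tbx6 and tbxta, which specify paraxial mesoderm and notochord, at -5.63 and -3.19. The smallest difference of the 11 was that of gsc, the organizer homeobox gene goosecoid, with 3295 at 48 hpf and 7852 at 8 hpf (-1.25). tbxta still had 1939 units at 48 hpf, against 17746 at 8 hpf. Among the 8 hpf only genes, the endoderm factor sox32 had 8452 units at 8 hpf on the brighter of 2 spots and was at least 91.6-fold lower at 48 hpf, and the Nodal inhibitor lft1 was at least 48.3-fold lower. Such a bound sets the bright stage against the lowest measured signal of the dim stage, or against the dim spot's own signal where that is higher.

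Of 23 hatching-period genes on the array, 8 were measured at both stages, 6 of them at least 4-fold higher at 48 hpf, against 7.39% of all genes, and 0 lower, and 15 were measured at 48 hpf only. ckma, the creatine kinase of muscle, had 27397 at 48 hpf and 86.8 at 8 hpf, 316-fold higher. The embryonic alpha-globin gene hbae3, whose product carries oxygen in red cells, had 42816 at 48 hpf and 519 at 8 hpf (6.30), and hbae1.1 had 36519 at 48 hpf and 701 at 8 hpf (5.70). pmela, which builds the fibres of the melanosome, had 7327 at 48 hpf and 172 at 8 hpf, 42.6-fold higher, and fabp7a, the fatty acid binding protein of radial glia, was 52.4-fold higher. The 2 members under 4-fold were tfa and tyr. tfa, the iron carrier transferrin, stood at 0.86 with 6 spots and a bright signal at both stages. tyr, tyrosinase, stood at 0.36 over 2 of 3 spots, which disagreed (-0.17 to 0.88). Its brighter spot had 132 at 48 hpf and 72.1 at 8 hpf, the latter near the detection limit. The beta-globin gene hbbe2 was at least 310.1-fold higher, the melanin enzyme gene tyrp1b at least 227-fold higher and the parvalbumin gene pvalb1, a calcium buffer of fast muscle, at least 225-fold higher.

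**Figure D1:**
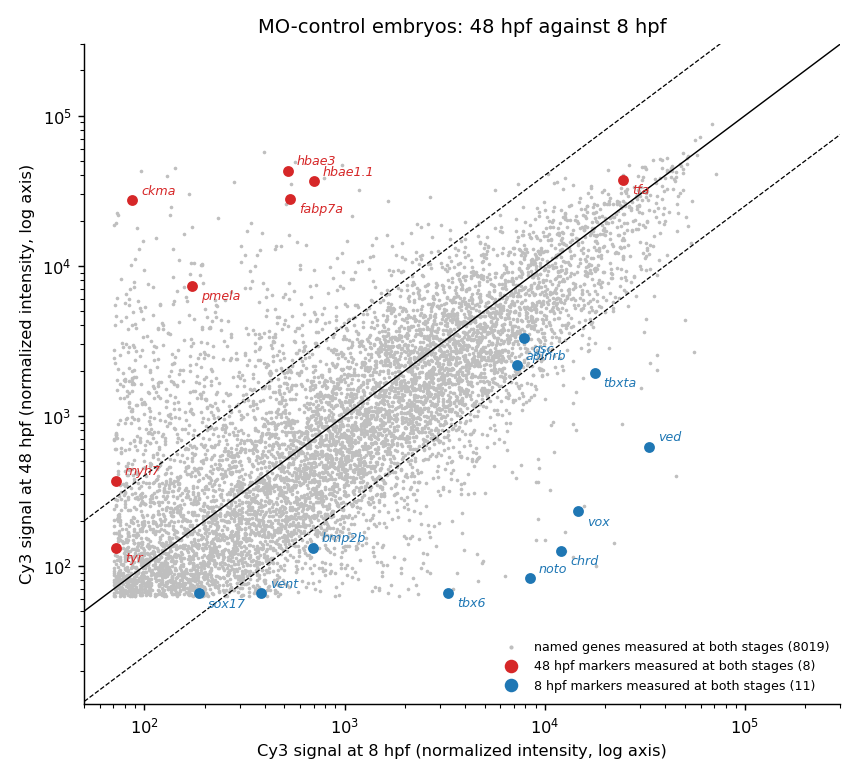
Cy3 signal of MO-control embryos at 48 hpf (vertical log axis) against 8 hpf (horizontal log axis) in normalized intensity units, 1 grey point for each of 8019 named genes measured at both stages. The 8 hatching-period genes are red and the 11 gastrula genes blue, the solid line marks equal signals and the dashed lines 4-fold differences; 6 of the red genes lie above the upper dashed line and 8 of the blue genes below the lower dashed line.

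Differences were ranked among genes measured at both stages that had a current symbol other than a clone name. All measured spots of a ranked gene had to reach 4-fold the same way. Muscle genes supplied most of the 20 highest. The highest of these was tpma, a tropomyosin of the thin filament, with 43061 at 48 hpf and 95.7 at 8 hpf on the brighter of 2 spots, 442-fold higher by the median of both (8.76 to 8.81). mylpfb and mylz3, light chains of fast muscle myosin, stood at 8.26 and 8.21, and the troponin genes tnnc1b, tnnt3b and tnnt3a at 8.06, 7.87 and 7.10. Of the 20 highest, 11 were contractile or muscle energy genes. The others of that kind were ckma, ak1 (adenylate kinase, 7.74), mybphb (7.59), acta1b (skeletal actin, 7.50) and actn3a (alpha-actinin of the Z-disc, 7.01). The remaining 9 were of other kinds. They included nme2b.2, a nucleoside diphosphate kinase, at 8.30, tcnbb at 8.26, the claudin cldni at 7.36 and the collagens col9a2 and col1a2 at 7.21 and 7.05. The beta-tubulin tubb4bl stood at 6.89 and sh3gl3a at 6.70. stmn2b, a tubulin-binding protein of growing axons, had 15325 at 48 hpf and 114 at 8 hpf and its 5 spots ran from 6.42 to 7.07. dpysl3, which takes part in axon guidance, had 8189.5 at 48 hpf and 76.5 at 8 hpf, 107-fold higher. Among the 20 highest, the 8 hpf signals of tnnc1b (72.1), tcnbb (72.8) and mylz3 (73.6) lay near the lowest measured one (70.5). Such folds, and their order, rest on dim 8 hpf values.

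The 20 lowest genes of the same ranking held axis, pluripotency and egg genes beside a few of other kinds. s100a1, a small calcium-binding protein, had 143 at 48 hpf and 22197 at 8 hpf and was 178-fold lower over 2 spots (-7.66 to -7.28). pou5f3, the zebrafish counterpart of the pluripotency factor Oct4, had 99.5 at 48 hpf and 18039.8 at 8 hpf and was 160.0-fold lower (-7.50 to -7.14 over 2 spots). The keratin krt99 had 398 at 48 hpf and 45389.6 at 8 hpf, 114-fold lower. uox, urate oxidase, was 78.2-fold lower with 2 spots, hnrnpk, an RNA-binding protein, 49.1-fold lower, arl6ip5a 45.1-fold lower and the cathepsin ctss2.1 36-fold lower.

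Another 3592 genes and transcripts were above background at 48 hpf only, of which 763 (21.2%) were at least 4-fold higher by the bound. Genes with a spot below the limit at both stages had no bound and count as not called, here and at 8 hpf. Bounds are ranked below among genes with a current symbol other than a clone name. The largest bounds belonged to aldoab, the aldolase of muscle (at least 671-fold, 47274 units at 48 hpf), the lens crystallins crygm2d18 (at least 564-fold), cryba1b (at least 494-fold) and crygmxl2 (at least 329-fold), and slc25a4, the mitochondrial ATP/ADP carrier (at least 427-fold). They were followed by myl1, pkmb, tnnc2.2, pvalb2 and hbbe2 from at least 411-fold for myl1 to at least 310.1-fold for hbbe2. On the other side 2433 were above background at 8 hpf only, and 231 (9.49%) were at least 4-fold lower by the bound. nnr was at least 219.8-fold lower, alox5b.3, a lipoxygenase, at least 172-fold and the Wnt ligand gene wnt8-2 at least 92.9-fold lower. Then came sox32, cdx4 (a caudal factor of the tail, at least 85-fold), zp3f.1 (an egg coat protein), npm2b (the egg nucleoplasmin, at least 72.5-fold), her7 (a repressor of the segmentation clock, at least 67.2-fold), lft2 and lft1. These are lower limits, so their order among themselves is not settled, but the bounds of aldoab, crygm2d18 and cryba1b lie above the 442-fold difference of tpma, and that of nnr lies beyond the 178-fold difference of s100a1.

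Egg transcripts and germ plasm genes were lower as a group. Of 45 on the array, 22 were measured at both stages, 12 were 4-fold lower and 1 was 4-fold higher, with a median of -2.26 against -0.35 for all genes. Another 21 were above background at 8 hpf only and 0 at 48 hpf only. The egg coat gene zp2.5 had 79.5 at 48 hpf and 4627 at 8 hpf, 58.2-fold lower. Its relatives zp2.3 and zp2.2, with 2 spots each, were 52.1-fold and 30-fold lower (-6.20 to -5.20 and -5.26 to -4.55 by spot). ddx4 (vasa), a helicase of primordial germ cells, had 72.2 at 48 hpf and 1413 at 8 hpf (-4.29), and nanos3, which protects those cells, 116 at 48 hpf and 1396 at 8 hpf (-3.59). zar1, a factor of the egg, stood at -4.33 and the germ line gene tdrd1 at -3.34. The called gene on the higher side was rbpms2a, an RNA-binding protein also made in heart and retina, with 4294 at 48 hpf and 671 at 8 hpf (2.68). With the detection limit doubled the list median was 0.08.

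The zygotic activators and early repressors were lower too. Of 36 genes, 27 were measured at both stages, 12 were 4-fold lower, 0 were 4-fold higher, and the median was -1.70. Another 8 were measured at 8 hpf only, among them nanog (at least 16.6-fold lower), the maternal and early zygotic homeobox factor. foxd5, a forkhead gene of the early neural plate, had 126 at 48 hpf and 12554 at 8 hpf, 99.4-fold lower. her3, an early neural repressor, had 119 at 48 hpf and 4578 at 8 hpf, 38.4-fold lower, and irx7 and sall4 stood at -4.67 and -4.40. hspb1, a small heat shock protein gene, had 2646 at 48 hpf and 55593 at 8 hpf (-4.69 over 2 spots). The members above 0 were eomesa at 1.45, sox11a at 0.75 and sox11b at 0.56, none of them 4-fold. eomesa is a maternal T-box gene that is used again in the forebrain.

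Nodal pathway and organizer genes followed the same course. Of 25 measured at both stages, 12 were 4-fold lower and 1 was 4-fold higher, with a median of -1.89. tdgf1, the Nodal co-receptor one-eyed pinhead, had 252 at 48 hpf and 15774 at 8 hpf and was 52.7-fold lower over 2 spots. The transcription factor foxh1, which carries the Nodal signal in the nucleus, was at least 23-fold lower and the ligand gdf3 at least 14.9-fold lower, both above background at 8 hpf only. frzb, a secreted Wnt inhibitor, was 30.9-fold lower, cyp26a1, which breaks down retinoic acid, had 3623 at 48 hpf and 31209 at 8 hpf (-3.23), and nog1, the BMP antagonist noggin, stood at -2.86. lhx1a, a LIM homeobox gene of the organizer that later marks kidney and neurons, was the exception with 11685 at 48 hpf and 1379 at 8 hpf (3.08). shha (sonic hedgehog), which continues in the floor plate and notochord, stood at 0.39 with 2 spots.

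In the endoderm list 10 genes were measured at both stages, of which 4 were 4-fold lower and 1 was 4-fold higher, with a median of -1.70. The transcription factor gene gata5 had 564 at 48 hpf and 4508 at 8 hpf, and gata6 had 111 at 48 hpf and 1972 at 8 hpf (-4.15). The chemokine receptor cxcr4a, which steers endoderm cells, stood at -4.02, and foxa3 at -3.55. foxa1, a forkhead factor of the differentiating gut, went the other way with 1384 at 48 hpf and 309 at 8 hpf (2.16), while foxa2 stood at -1.89. The paraxial mesoderm list had 14 genes measured at both stages, of which 5 were 4-fold lower and 0 higher, with a median of -1.13, and 9 at 8 hpf only. The somite genes ripply1 and snai1a stood at -4.02 and -3.05. mespaa and mespba, which set the front of the forming somite, were at least 10.8-fold and at least 8.3-fold lower, and the clock gene her11 was at least 8.67-fold lower. The highest member measured at both stages was snai2, a marker of the neural crest, at 1.77, and uncx, a homeobox gene of the somites, was measured at 48 hpf only and at least 16.1-fold higher (1132 at 48 hpf and 55.8 at 8 hpf).

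Signalling lists held genes on both sides. The FGF list had 20 genes measured at both stages, of which 6 were 4-fold lower and 3 were 4-fold higher, and its median of -0.90 was 0.28 with spike-in scaling. The ligands fgf17, fgf8a and fgf24 stood at -3.65, -2.85 (3 spots) and -2.71, and the targets etv4 and etv5b, ETS factors switched on by the pathway, at -2.50 and -2.42. The receptor gene fgfr3 had 1534 at 48 hpf and 112 at 8 hpf (3.78) and fgfr2 4617 at 48 hpf and 901 at 8 hpf (2.36). The receptor-like gene fgfrl1a stood at 2.67, whereas fgfr4 stood at -1.10 and fgfr1a at -0.97. The 3 genes called higher were receptors or receptor-like, and those called lower were ligands, targets and il17rd (-2.47, 3 spots), a feedback inhibitor.

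For BMP and ventral genes the median was -0.81 (0.28 with spike-in scaling), and of 30 genes 9 were 4-fold lower and 3 were 4-fold higher. Beside chrd, vox and ved, the caudal gene cdx1a stood at -4.35 (2 spots), foxi1 at -4.17, msx1a at -3.22 and the ligand bmp2b at -2.40. The higher genes were dlx5a, a homeobox gene of jaw, fin and ear, with 1762 at 48 hpf and 198 at 8 hpf (3.16), tbx2b at 2.95 and the antagonist grem2b at 2.55. The intracellular mediators smad1 and smad7 stood at 0.17 and 0.16. In the Wnt list 8 of 34 were 4-fold lower and 1 was 4-fold higher, with a median of -0.86 (0.08 with spike-in scaling). The direct target sp5l had 148 at 48 hpf and 9045 at 8 hpf, 60.9-fold lower, and the receptor genes fzd8b and ror2 stood at -4.64 and -2.93. The secreted inhibitor sfrp1a stood at -3.96, while another inhibitor, wif1, was the called gene on the higher side with 2880 at 48 hpf and 627 at 8 hpf (4.6-fold higher). Among the ligands, wnt8a was at least 16.7-fold lower and measured at 8 hpf only, whereas wnt9a and wnt11 were at least 20.6-fold and at least 12.4-fold higher and measured at 48 hpf only.

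Notch genes did not lean one way. Of 27 measured at both stages, 3 were 4-fold higher and 1 was 4-fold lower, against 7.39% and 7.31% of all genes. The median of 0.02 was -0.26 with 75th percentile scaling. The ligand gene dlb, made by new neurons, had 3029 at 48 hpf and 81 at 8 hpf (5.23), and the Notch targets her4.2 and hey1 stood at 3.07 and 2.32. her3 was lower, as given above, and her5, an early gene of the midbrain region, was at least 19.4-fold lower. The receptors notch1a, notch2 and notch3 stood at -0.56, 0.39 and 0.02.

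**Figure D2:**
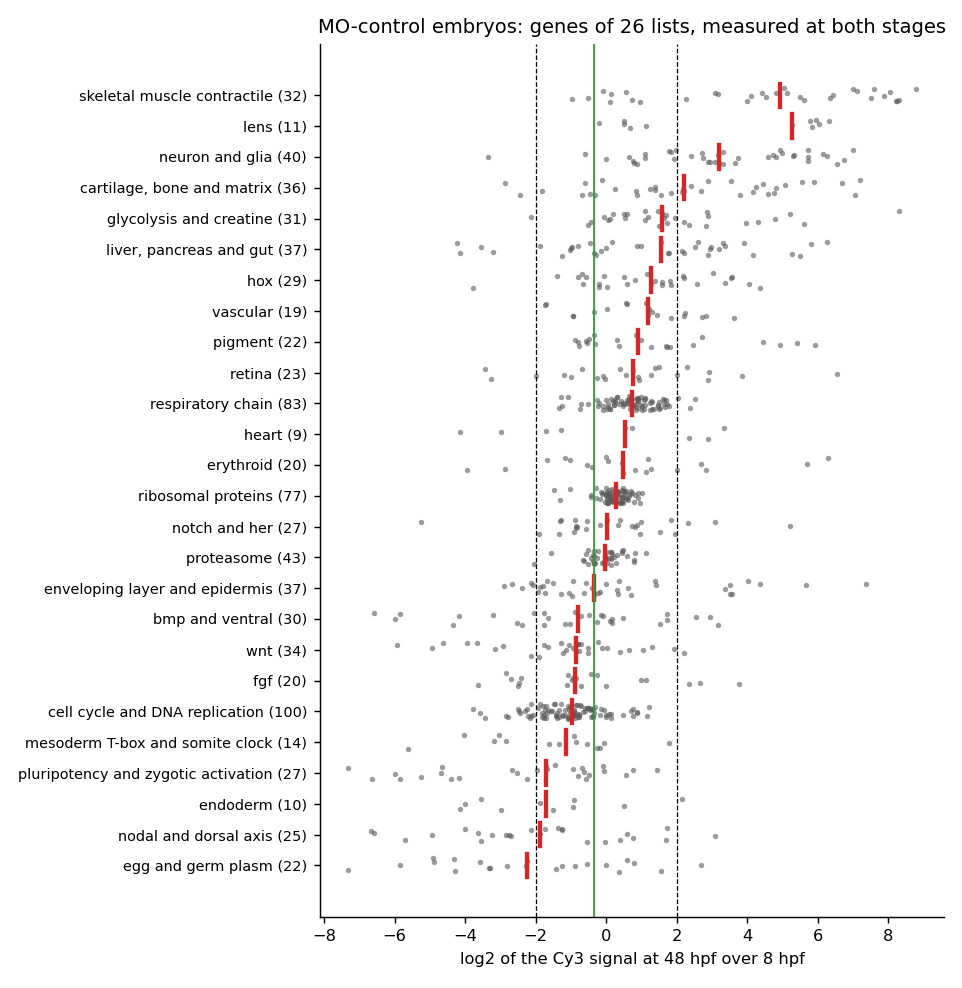
Log2 of the Cy3 signal at 48 hpf over 8 hpf for the genes of 26 lists in MO-control embryos, 1 point per gene measured at both stages, with the number of genes in parentheses. Red bars are list medians, the green line the median of all genes (-0.35), and dashed lines mark 4-fold. Medians run from 5.28 for lens to -2.26 for egg and germ plasm. Those of ribosomal proteins and Notch genes change sign with 75th percentile scaling, and those of the proteasome, enveloping layer, BMP, Wnt and FGF lists with spike-in scaling. With the detection limit doubled, the egg and germ plasm median is 0.08 and the Notch median -0.56.

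Contractile genes of skeletal muscle were higher at 48 hpf. In the skeletal muscle list, 24 of 32 genes measured at both stages were 4-fold higher and 0 were 4-fold lower, with a median of 4.93, and 44 more were measured at 48 hpf only against 1 at 8 hpf only. atp2a1, the calcium pump that lets muscle relax, was at least 245-fold higher, and the cardiac and skeletal actin gene actc1b had 49039 at 48 hpf and 563 at 8 hpf (6.44). The members below 0 were the troponin I genes tnni2a.4 (-0.97) and tnni2a.2 (-0.51) and pdlim7 (-0.10). The value of pdlim7 rests on 1 of its 3 spots, since the others were not measured at both stages. In MO2-ers2a embryos its brightest spot had 53001 at 48 hpf and 54.1 at 8 hpf. The factors that build muscle behaved differently from its structural genes: 5 of 12 were 4-fold higher and 3 lower, with a median of -0.62 (0.84 with spike-in scaling). myf5, which starts the muscle programme, had 298 at 48 hpf and 2988 at 8 hpf (-3.20, 2 spots), while myod1 had 1934 at 48 hpf and 429 at 8 hpf (2.17) and myog, of differentiating fibres, was at least 12.8-fold higher. six1b and mef2ca stood at 4.32 and 3.35. Among ion channels of muscle, the acetylcholine receptor subunit chrne stood at 4.82 and the calcium channel cacna1sb at 4.42.

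Among genes measured at both stages, the neural list gave the most 4-fold higher calls of any list by number. The skeletal muscle list had a larger share of its genes called. Of 40 measured at both stages, 27 were 4-fold higher and 1 was 4-fold lower, with a median of 3.19, and 36 were measured at 48 hpf only against 1 at 8 hpf only. snap25a, part of the machine that releases transmitter, had 5449 at 48 hpf and 71.3 at 8 hpf (6.26), neurod6b, a neuronal differentiation factor, 5616 at 48 hpf and 79.5 at 8 hpf (6.14), and sncb, a synuclein, stood at 5.31. The glial genes gfap and slc1a2b, a glutamate transporter, stood at 5.71 and 5.72. Genes of inhibitory neurons were seen at 48 hpf only: slc32a1, which loads GABA into vesicles, was at least 60.5-fold higher and the GABA transporter slc6a1b at least 116-fold higher. neurod1 was at least 196-fold and stxbp1a at least 112-fold higher. The gene 4-fold lower was inaa, an intermediate filament gene, with 97 at 48 hpf and 999.8 at 8 hpf (-3.37), and tubb2b, a beta-tubulin, stood at -0.01 with 42902 at 48 hpf and 43092 at 8 hpf.

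Lens genes had a median of 5.28, and of 11 genes 6 were 4-fold higher and 0 lower, with 21 more measured at 48 hpf only. lim2.4, a membrane protein of lens fibres, had 6454 at 48 hpf and 81 at 8 hpf (6.32), and mipb, their water channel, had 10486 at 48 hpf and 171 at 8 hpf (5.94). The crystallins crybb1l2 and crygn2 stood at 6.02 and 5.82. Retina genes were mixed, with 6 of 23 at least 4-fold higher, 2 lower and a median of 0.76, which was -0.25 with the detection limit doubled. mab21l2, of eye growth, had 12867 at 48 hpf and 139 at 8 hpf (6.53) and pax6a stood at 3.86 over 2 spots that disagreed (1.35 to 6.37). crx, the photoreceptor factor, was at least 86.9-fold higher and atoh7, of retinal ganglion cells, at least 21.1-fold higher. rx3, which starts the eye field, went the other way with 592 at 48 hpf and 6438 at 8 hpf (-3.44), and gngt2a, named for a cone transducin subunit, stood at -3.28.

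Among blood and vessel genes the globins stood apart from the early blood factors. 5 of 20 erythroid genes were 4-fold higher and 2 lower (median 0.46). ca2, carbonic anhydrase, was 7.12-fold higher and hemgn stood at 2.68, while drl and znfl2a, zinc finger genes of early mesoderm, stood at -2.87 and -3.94. In the vascular list 5 of 19 were 4-fold higher and 0 lower, with a median of 1.19 and 19 measured at 48 hpf only. The semaphorin receptor plxnd1 had 2540.1 at 48 hpf and 208 at 8 hpf (3.61), the growth factor vegfaa stood at 2.82 and the tight junction gene cldn5b was 6.52-fold higher. pecam1a, egfl7 and clec14a, of endothelium, were at least 22.8-fold, at least 21.3-fold and at least 24.1-fold higher.

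Few heart genes could be compared. Of 26 on the array, 9 were measured at both stages, of which 3 were 4-fold higher and 2 lower (median 0.54, or -1.21 with the detection limit doubled), and 10 at 48 hpf only. The lower pair were gata5 and gata6, named above. hand2, a factor of heart and fin, stood at 2.90. The ventricular myosin gene now named myh7 had 369 at 48 hpf and 72.1 at 8 hpf (2.36), and cmlc1 and tnnt2a, of the cardiac sarcomere, were at least 25.5-fold and at least 12.5-fold higher. has2, which makes the hyaluronan of the cardiac jelly, was at least 13.6-fold lower and above background at 8 hpf only. Myeloid genes had a median of -0.50 (0.89 with spike-in scaling), and of 19 genes 3 were 4-fold higher and 3 lower. lcp1 (L-plastin), a leukocyte marker in later embryos, had 1543 at 48 hpf and 30110.1 at 8 hpf (-4.29), and coro1a stood at 2.02. The macrophage genes mfap4.2 and mfap4.3 were at least 9.58-fold and at least 6.87-fold higher. Interferon genes gave 0 higher and 2 lower calls of 12. ifi27.1 had 446 at 48 hpf and 9337 at 8 hpf (-4.33, 2 spots) and socs1a stood at -3.04.

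Matrix and skeletal genes had a median of 2.19. Of 36 measured at both stages, 20 were 4-fold higher and 2 lower, and 29 were measured at 48 hpf only against 2 at 8 hpf only. dcn, the proteoglycan decorin, had 10486 at 48 hpf and 177 at 8 hpf (5.89), tnn, a tenascin, 16158 at 48 hpf and 158 at 8 hpf (6.68), and mmp2, a collagenase, 5592 at 48 hpf and 120.0 at 8 hpf (5.54). The chains of type I collagen col1a1a and col1a1b were at least 173-fold and at least 223-fold higher, and and3, an actinodin of the fin fold, at least 41.5-fold higher. The laminins of the early basement membrane, lama1 and lamb1a, were the lower pair. lama1 had 169 at 48 hpf and 1253 at 8 hpf (-2.89) and lamb1a 179 at 48 hpf and 980.2 at 8 hpf (-2.45). The notochord list joined both kinds, with 3 of 20 higher, 4 lower and a median of -0.13 (0.89 with spike-in scaling). Its highest members measured at both stages were the sheath collagen col9a2 and the caveolae gene cav1 (5.02), its lowest noto and tbxta. The caveolae gene cavin4a and the gene cmn were measured at 48 hpf only, at least 119.9-fold and at least 80.5-fold higher.

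Pigment cell genes gave 6 higher and 0 lower calls of 22 at 4-fold, with a median of 0.91 (-0.02 over genes with 2 or more spots). sox10, which directs neural crest to pigment and glial fates, had 3770 at 48 hpf and 124 at 8 hpf (4.93), mitfa, the master factor of melanocytes, stood at 2.72 and dct was at least 79-fold higher. tfap2a and foxd3, crest factors already present in the gastrula, stood at -0.48 (4 spots) and -0.81 (2 spots). In the ear and lateral line list 9 of 27 were higher and 3 lower, with a median of -0.07 (1.41 with spike-in scaling). cxcl14 had 2551 at 48 hpf and 75.8 at 8 hpf (5.07), and oc90 and otomp, proteins of the otolith, stood at 3.21 and 2.46. stm (starmaker) and otop1, also otolith genes, were lower. stm had 471 at 48 hpf and 7602 at 8 hpf (-3.83, 2 spots) and otop1 had 698 at 48 hpf and 5919 at 8 hpf (-3.08).

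For genes of liver, pancreas and gut the median was 1.56, with 16 of 37 at least 4-fold higher and 4 lower. Secreted liver proteins led: fgb, a fibrinogen chain, had 8613 at 48 hpf and 189 at 8 hpf (5.51), vtna, vitronectin, stood at 5.27 and f2, prothrombin, at 3.90. The pancreatic hormone gene ins, insulin, had 748 at 48 hpf and 72.1 at 8 hpf (3.38), and sst1.1, somatostatin, had 693 at 48 hpf and 70.5 at 8 hpf (3.30), both with an 8 hpf signal near the detection limit. insb, another insulin gene, was at least 16.4-fold lower and measured at 8 hpf only. For lipid transport, apoa4b.1 had 34768 at 48 hpf and 540.2 at 8 hpf (6.27, 2 spots) and apoa1a stood at 2.95, while mttp, which loads lipid onto lipoproteins, had 383 at 48 hpf and 7204 at 8 hpf (-4.23). The apolipoprotein gene apoeb, of the yolk syncytial layer, stood at -0.14 with 3 spots. Of the hatching gland genes, the hatching enzyme he1.1 was at least 146-fold higher and measured at 48 hpf only, and prdm1a, an early factor of the gland, stood at -2.04.

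The epidermal list held genes of the enveloping layer, the outer sheet of the gastrula, and of the later skin, and 8 of 37 were 4-fold higher and 5 lower, with a median of -0.36 (0.36 with spike-in scaling). itga6b, an integrin of the basal epidermis, had 1794 at 48 hpf and 86.8 at 8 hpf (4.37) and icn, ictacalcin, 26802 at 48 hpf and 1653 at 8 hpf (4.02). evpla (envoplakin) and dspa (desmoplakin), of the cell cortex and of desmosomes, stood at -2.07 and -1.88. The keratin krt1-19e was at least 106-fold higher by the smaller bound of its spots.

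Hox genes, which give cells their place along the body, leaned to higher values at 48 hpf. Of 46 on the array, 29 were measured at both stages, 9 were 4-fold higher and 1 lower, with a median of 1.26, and 11 were measured at 48 hpf only and 0 at 8 hpf only. hoxb1b, which acts in the hindbrain of the gastrula, was the lower one, with 1217 at 48 hpf and 13835 at 8 hpf (-3.79, 2 spots). hoxd3a was the highest of those measured at both stages, with 1492 at 48 hpf and 72.8 at 8 hpf (4.36), and hoxc13a followed with 1354 at 48 hpf and 81.7 at 8 hpf (4.05). hoxa4a, hoxc4a, hoxd10a and hoxb5a stood at 3.57, 3.53, 3.35 and 3.03. The median was 1.37 for 8 measured genes of groups 1 to 4, 1.53 for 10 of groups 5 to 8 and 1.15 for 11 of groups 9 to 13. In groups 9 to 13, another 6 of 21 genes were measured at 48 hpf only and 4 at neither stage. The 8 hpf signals of hoxd3a, hoxc13a and hoxa4a (81.7) lay near the lowest measured one (70.5), so such folds rest on dim values. These medians therefore cannot settle whether there was an order along the clusters. Within group 1, hoxb1b at -3.79 and hoxb1a at -0.66 lay below hoxc1a at 0.52, and hoxb7a at -1.40 was the only other hox gene 2-fold lower.

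**Figure D3:**
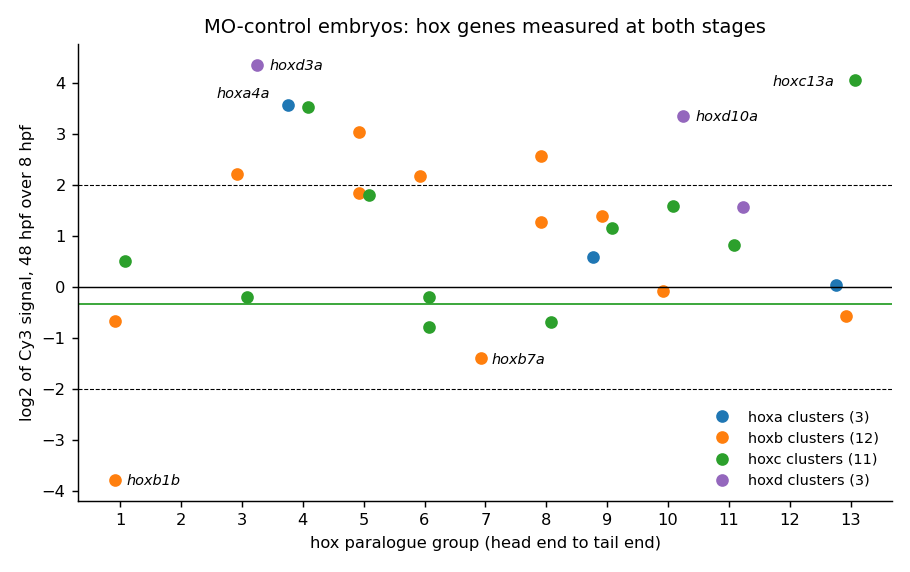
Log2 of the Cy3 signal at 48 hpf over 8 hpf in MO-control embryos for 29 hox genes measured at both stages, by paralogue group from the head end (1) to the tail end (13) and coloured by cluster letter. The black line marks 0, the green line the median of all genes and dashed lines 4-fold; 9 genes lie at 4-fold or more above 0 and hoxb1b alone at 4-fold below.

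Housekeeping systems differed among themselves. Cell cycle and replication genes were lower on the whole: of 100 measured at both stages, 88 lay below 0, 49 were 2-fold lower (28% of all genes were), 15 were 4-fold lower and 0 were 4-fold higher, with a median of -0.99 (-0.22 with spike-in scaling). The cyclin E genes ccne1 and ccne2, which start S phase, stood at -3.78 and -2.47. gmnn, geminin, had 353 at 48 hpf and 3816 at 8 hpf (-3.44), wee1, a brake on mitosis, 229.8 at 48 hpf and 1653 at 8 hpf (-2.85), and ccnb2, a mitotic cyclin, 2319 at 48 hpf and 13888 at 8 hpf (-2.79, 2 spots). The highest members measured at both stages were ccng2 at 1.22 and the inhibitor genes cdkn2c at 1.16 and cdkn1bb at 0.88 (3 spots), which slow the cycle.

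Ribosomal protein genes stayed within 4-fold, with 0 of 77 called, a lowest value of -1.50 and a median of 0.26 (-0.26 with 75th percentile scaling). In the proteasome 1 of 43 was 4-fold lower, the activator gene psme1 (-2.06), with a median of -0.03 (0.68 with spike-in scaling). Translation factors gave 5 higher and 2 lower calls of 66, against 7.39% and 7.31% of all genes. Their median was -0.06 (0.71 with spike-in scaling). Among them eef1da and eef2k stood at 2.47 and 2.49, eif2s1a at -2.17, and eif4e1b, the cap-binding protein of the egg, was at least 29.1-fold lower and measured at 8 hpf only.

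Genes of energy metabolism leaned to higher values at 48 hpf. In the respiratory chain 71 of 83 genes lay above 0, 28 were 2-fold higher (15.5% of all genes were), 3 were 4-fold higher and 0 were 4-fold lower, with a median of 0.73 (0.01 with 75th percentile scaling). ndufb10, of complex I, had 7907 at 48 hpf and 1392 at 8 hpf (2.52, 2 spots), and the ATP synthase genes atp5po and atp5f1c stood at 1.77 and 1.74, both with 2 spots. The complex I assembly factors ndufaf2 and ndufaf4 were among the lowest, at -1.35 and -1.24. Glycolysis and creatine genes had 11 of 31 at least 4-fold higher, 1 lower and a median of 1.58. eno1a, an enolase, had 38643 at 48 hpf and 791 at 8 hpf (5.61), pklr, a pyruvate kinase, 11811 at 48 hpf and 318 at 8 hpf (5.21), and pgk1 and ldha stood at 4.31 and 3.97. tpi1b, triosephosphate isomerase, stood at 2.86 over 5 spots. pck2, which runs the pathway backwards from the mitochondrion, was lower with 3456 at 48 hpf and 15260 at 8 hpf (-2.14).

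Chromatin genes gave 4 higher and 4 lower calls of 41, against 7.39% and 7.31% of all genes. Their median was -0.49 (0.33 with spike-in scaling). hdac4, a histone deacetylase, had 2184 at 48 hpf and 169 at 8 hpf (3.70), and kdm6bb, a histone demethylase, had 890.1 at 48 hpf and 79.5 at 8 hpf (3.48), while macroh2a1 and npm1a stood at -3.12 and -2.16. Stress genes had a median of 0.19 (-0.27 with 75th percentile scaling). Of 63, 7 were higher and 6 lower, beside the same shares of all genes. The immediate early genes egr1, junba and jun stood at 3.37, 3.13 and 2.45, while the heat shock factor hsf1 and the chaperone genes dnajb1b and dnaja1 stood at -2.08, -2.50 and -2.20. nfe2l2a, which directs the defence against oxidants, was 6.43-fold higher over 3 spots, whereas nqo1, a target of that factor in mammals, stood at -2.47 over 2.

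Nuclear receptors had a median of 0.07 (-0.02 with 75th percentile scaling), with 3 higher and 3 lower of 24. nr2f2, a COUP factor of veins and the nervous system, had 7746 at 48 hpf and 88.1 at 8 hpf (6.46), and its relative nr2f1a had 13438 at 48 hpf and 452 at 8 hpf (4.75), while nr0b2a and hnf4b stood at -3.16 and -2.72. The estrogen receptor beta genes esr2a and esr2b were below the detection limit at both stages on each of their 2 spots, so the stages cannot be compared for them. In the hormone list hsd11b2, which inactivates cortisol, stood at 2.79. cyp11a1.1, which starts steroid synthesis, stood at -3.30, with 1 spot far below the other (-5.52 to -1.08). Cholesterol synthesis genes gave 0 calls either way of 20, from -1.59 for idi1 to 1.22 for acat2. Of 141 solute carriers, 10 were higher and 13 lower, near the 7.39% and 7.31% of all genes. Their median was -0.44, or 0.84 with spike-in scaling. slc40a1, the iron exporter ferroportin, had 3803 at 48 hpf and 83.2 at 8 hpf (5.52), and the glucose transporter slc2a12 165 at 48 hpf and 3853 at 8 hpf (-4.60, 2 spots). The galectin genes lgals3a and lgals2a stood at 3.15 and 3.10, but lgals3b, lgalsla and lgals3bp.3 at 0.33, -0.19 and -0.83. The galectin median was 0.33, or -0.19 with the detection limit doubled. In the cadherins, with a median of -0.69 (0.16 with spike-in scaling), cdh17, of the pronephric duct, stood at 2.85 and the protocadherin pcdh1b at -2.71.

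In 10 gene families some members were higher and others lower at 48 hpf. Closely related transcripts can cross-hybridise, and such cross-signal was not measured here. In the S100 family s100a1 was 178-fold lower while s100a10b had 15357 at 48 hpf and 1440.2 at 8 hpf and was 11.3-fold higher over 2 spots, and s100a10a 11.9-fold higher. Among keratins krt99 and krt18a.1 were 114-fold and 5.26-fold lower and krt17 3.44-fold lower, while krt91 had 25595 at 48 hpf and 507 at 8 hpf and was 50.5-fold higher. Among claudins cldne (-2.67, 4 spots from -3.73 to -0.55) and cldnf (-2.13, 2 spots) were lower, and cldni, with 21920.5 at 48 hpf and 134 at 8 hpf, and cldn3c were 164-fold and 14.7-fold higher. The SoxB1 factors, which keep cells in a pluripotent or neural precursor state, formed a series: sox19b stood at -1.95 (6 spots, -2.10 to -1.73), sox19a at -1.46, sox3 at -0.63 (6 spots), sox2 at -0.07, sox1b at 2.94 and sox1a at 3.31.

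Other pairs came from chromatin, the cytoskeleton, the matrix and the clock. The DNA methyltransferase gene dnmt3bb.2 had 866 at 48 hpf and 10685 at 8 hpf (-3.60, 2 spots), and dnmt3ab had 1578 at 48 hpf and 290.0 at 8 hpf (2.44). tuba4l, an alpha-tubulin, stood at -3.03 and tuba2 at 6.55. The annexin anxa2b stood at -2.91 over 2 spots and anxa2a at 3.35, and the fibronectins fn1a and fn1b at -1.82 and 1.39. The helicase gene eif4a1a stood at -0.84 and eif4a1b at 2.81, and of the clock genes per3 stood at -1.82 and per1b at 4.33. These 10 families were picked after their values were seen, so they describe these arrays and say nothing of how common such pairs are.

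**Figure D4:**
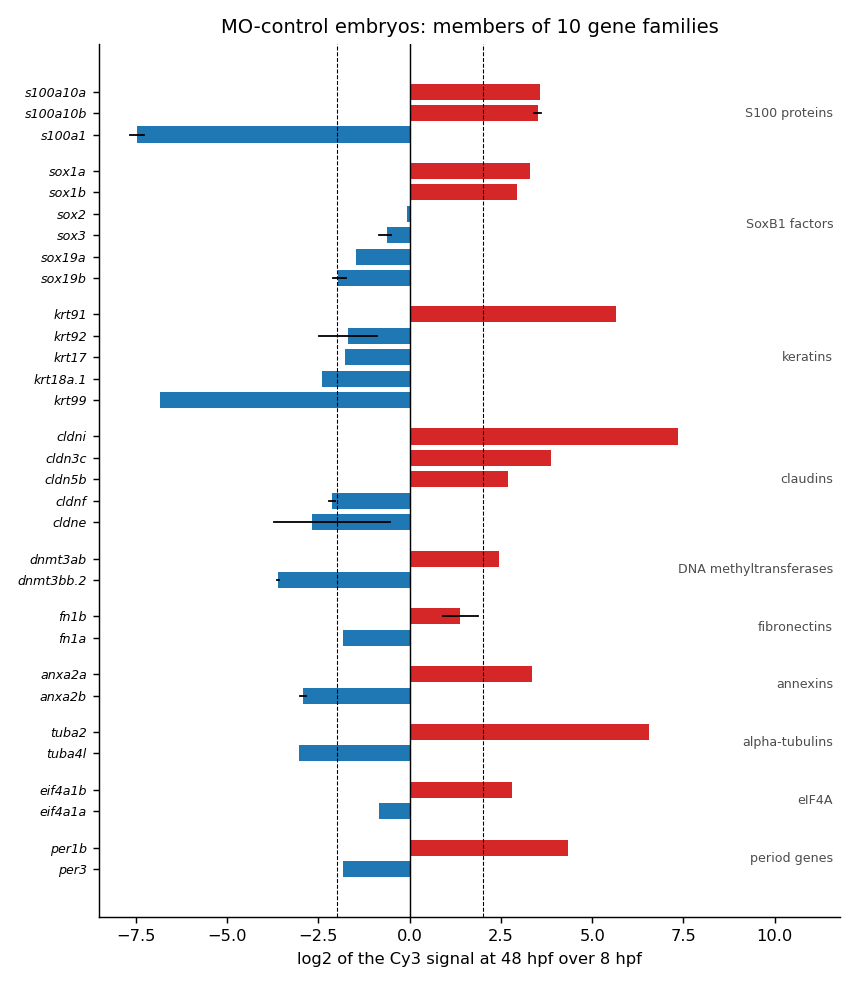
Log2 of the Cy3 signal at 48 hpf over 8 hpf in MO-control embryos for members of 10 gene families measured at both stages. Bars are the median over a gene's spots (red above 0, blue below 0), black lines run from the lowest to the highest spot of a gene, and dashed lines mark 4-fold; each family holds members on both sides of 0, from s100a1 at -7.47 to cldni at 7.36.

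The same stage difference was read in the MO2-ers2a embryos, whose RNA was labelled with Cy5 on the same 2 arrays. There 1940 of 17445 genes and transcripts (11.1%) were called higher at 48 hpf by the same rule and 2039 (11.7%) lower, with a median of -0.42, and at 2-fold 19.8% were higher and 33.2% lower. The detection limits of the Cy5 channel were lower, 27.7 at 48 hpf and 24.4 at 8 hpf, so more dim genes entered. Over the 13201 genes measured in both RNAs, Pearson's r between the stage differences was 0.919 and Spearman's rho 0.890. This is across genes, which are not replicates of each other, and both RNAs share the arrays and the probes. MO-control RNA was always in Cy3 and MO2-ers2a RNA always in Cy5, so dye and morpholino cannot be told apart. Of 968 genes 4-fold higher in MO-control embryos, 865 (89.4%, and 68.3% of the 1266 called in MO2-ers2a embryos) were also 4-fold higher in MO2-ers2a embryos. Of 980 genes 4-fold lower in MO-control embryos, 755 (77%, and 52.2% of 1447) were also 4-fold lower in MO2-ers2a embryos. In 0 genes were the RNAs 4-fold opposite. Where a gene has several spots, a different set of them can pass the limit in each RNA. Over spots measured in both RNAs, r was 0.923 and rho 0.893 across 13188 genes. Over those spots the muscle median was 5.03 in MO-control and 6.19 in MO2-ers2a embryos (31 genes), and the neuron median 3.18 in MO-control and 3.20 in MO2-ers2a embryos (35 genes). In the same order the medians were 5.28 and 5.37 for lens (11 genes), -1.89 and -2.14 for Nodal and axis genes (25 genes) and -2.54 and -2.40 for egg genes (20 genes). They were -0.98 and -0.90 for the cell cycle (99 genes) and -1.29 and -1.72 for heart (7 genes). The heart genes myl4 (0.54) and myh7 (2.36) had no MO2-ers2a value and are left out here. With them the MO-control heart median was 0.54. Galectins had the widest gap (0.33 and 3.18, 5 genes), and muscle, given above, the next. Gastrula genes (-3.19 and -4.27, 11 genes) and endoderm (-1.70 and -2.61, 10 genes) followed.

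In 238 genes and transcripts the stage differences of the RNAs were 2 or more apart on the log2 scale, and in 219 over spots measured in both RNAs. Such gaps join the effects of dye and morpholino, which the design does not separate. Among genes with a current symbol, the MO-control value was below the MO2-ers2a value by the most for tgm2b, a transglutaminase. It had 2481 at 48 hpf and 2858 at 8 hpf in MO-control embryos (-0.51, 2 spots). In MO2-ers2a embryos it had 8489.5 at 48 hpf and 119 at 8 hpf (6.15). The low value was that of MO2-ers2a embryos at 8 hpf, and on the spot measured in both RNAs the differences were -0.20 in MO-control and 6.15 in MO2-ers2a embryos. quob stood at -1.35 in MO-control and 2.95 in MO2-ers2a embryos, and popdc3 at 0.13 and 4.31. For rlbp1b and slc43a1b no spot was measured at both stages in both RNAs, so their values (0.93 in MO-control and 6.32 in MO2-ers2a embryos for rlbp1b, 1.97 and 6.46 for slc43a1b) come from unlike spots. On the brightest spot of each, MO-control embryos had 1197 at 48 hpf and 47.1 at 8 hpf for rlbp1b and 1264 at 48 hpf and 35.1 at 8 hpf for slc43a1b, with the 8 hpf signal below the limit. gapdhs stood at 6.26 in MO2-ers2a embryos and its 2 MO-control spots disagreed, at -2.38 to 4.77. Over spots measured in both RNAs the MO2-ers2a value was 2.23, 1.03 above that of MO-control embryos. The MO-control value was above the MO2-ers2a value for the phosphodiesterase gene pde11al, at -1.54 in MO-control and -5.70 in MO2-ers2a embryos, and for gnmt, a glycine methyltransferase, at 1.06 and -2.80. The same held for the opsin opn6a at -1.21 and -4.72, fkbp5, which is induced by glucocorticoids, at 2.18 and -1.31, and sult5a1 at 0.13 and -3.20. cyp11a1.1 stood at -3.30 and -6.91, but at -5.52 and -6.91 on the spot measured in both RNAs.

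**Figure D5:**
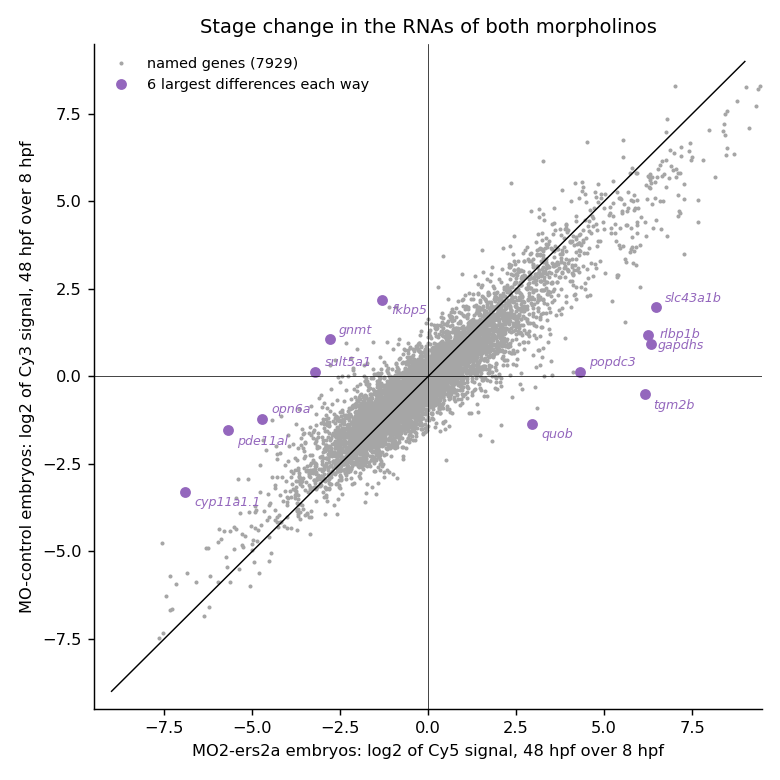
Log2 of the signal at 48 hpf over 8 hpf in MO-control embryos (Cy3, vertical) against the same in MO2-ers2a embryos (Cy5, horizontal), 1 grey point for each of 7929 named genes measured in both RNAs. The line marks equal differences, and the 6 genes each way with the largest gap between the RNAs are purple, with tgm2b at -0.51 and 6.15. Those of rlbp1b, slc43a1b, gapdhs and cyp11a1.1 rest in whole or in part on spots that were measured in 1 RNA only.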

How the data were processed

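Each file is the scanner output of 1 Agilent 2-colour array, made with Agilent Feature Extraction per the submitters' processing notes, with its version not given in the sources used here. Median foreground and background intensity of each spot and channel, per the file headers, were taken from these deposited files, and the deposited log10 ratios were not used. For the Cy3 channel, background was subtracted from each spot's intensity, negative and other control spots were left out, and the 48 hpf and 8 hpf arrays, matched by line number and gene name, were quantile-normalized to each other with no further correction. The MO2-ers2a values came from the Cy5 channel in the same way. A spot entered where it passed the limit set by 153 negative controls (mean plus 2.6 SD), which was chosen after the data were seen. Symbols were updated through RefSeq and Ensembl name tables: 20129 spots carried 13542 symbols, 458 had an ambiguous name, 10 a name altered to a calendar date and 23108 no match, and the last 3 kinds were left unnamed. A gene's value is the median log2 difference over its measured spots. Genes measured at 1 stage were given a bound, the smallest over their spots, where all their spots were measured at that stage.

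With 1 array per stage there was no test, and the number of arrays limits the precision. The 4-fold rule was applied over all genes. Named genes were the 20 highest and 20 lowest measured at both stages and the 10 largest bounds each way. The 3 highest and 3 lowest of each of 49 gene lists and the 6 largest differences each way between the RNAs were also counted as named. Some of these list members are not printed above. Except for the lists, these were taken among genes with a current symbol other than a clone name. All measured spots of the 20 had to reach 4-fold the same way. All spots of the 10 had to be measured at the bright stage. Members and lists were chosen with earlier results of these data known. List entries that resolved to genes outside their group were removed, and further list members and the 10 families were named, after values were seen. Alternatives were other scalings, normexp background correction with an offset of 50, other limits on dim spots and other ways to join spots. A comparison of the RNAs over spots measured in both was added after the data were seen. The code was tested on simulated data. Python 3.11.15, numpy 2.4.6, pandas 2.3.3, R 4.3.3 and limma 3.58.1 were used.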

Additional observations from a re-analysis of the deposited data

Results flagged for a closer look

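For 3 named genes the stage difference had opposite signs in MO-control and MO2-ers2a embryos, at 2-fold or more each way. These differences were not tested, since each value is 1 channel of 1 array, and both RNAs share the arrays. Dye and morpholino cannot be told apart in them. fkbp5, a co-chaperone of steroid receptors, had 459 at 48 hpf and 101 at 8 hpf in MO-control embryos (2.18) and 50 at 48 hpf and 132 at 8 hpf in MO2-ers2a embryos (-1.31), a gap of 3.50 (MO-control minus MO2-ers2a, log2). gnmt, which methylates glycine in the liver, had 159 at 48 hpf and 76.5 at 8 hpf in MO-control embryos (1.06) and 299 at 48 hpf and 2090.5 at 8 hpf in MO2-ers2a embryos (-2.80), a gap of 3.86. quob had 766 at 48 hpf and 1952 at 8 hpf in MO-control embryos (-1.35) and 2013 at 48 hpf and 261 at 8 hpf in MO2-ers2a embryos (2.95), a gap of -4.30. Over spots measured in both RNAs the gaps were 3.58 for fkbp5, 3.86 for gnmt and -4.30 for quob.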

How the results depend on the processing

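No paired analysis was possible because each stage has 1 array and no test was made. The counts of genes 4-fold higher and lower, 994 and 983, depended on the scaling and on the limit for dim spots. With 75th percentile scaling 1646 were lower, and with spike-in scaling 2518 were higher and 232 lower. With the limit doubled 541 of 9703 genes were higher, and with no limit 1726 were. Among the 2746 genes with 2 or more spots 140 were higher and 216 lower, from fewer genes. At 2-fold the counts were 2085 and 3771. The share of calls that were higher was 50.3%, against 34.9% with 75th percentile scaling, 57.4% with scaling to the median of measured spots, 91.6% with spike-in scaling, 60.9% with no limit and 39.3% over genes with 2 or more spots. Normexp correction gave 889 higher and 738 lower, and the brightest spot of each gene 1027 and 971. The egg and germ plasm median of -2.26 was 0.0842 with the limit doubled, and the cause was not tested. Of 49 list medians, 49 moved by more than the spread between spots with spike-in scaling, 15 with 75th percentile scaling and 2 with scaling to the median. The count was 14 with no limit, 8 with the limit doubled (besides 1 counted as reversed) and 16 of 48 over genes with 2 or more spots. It was 0 with normexp or the brightest spot. With the limit doubled, the medians of the egg, heart, retina, Notch, galectin, clock and neurotransmitter receptor and channel lists changed sign. That of heart went from 0.54 to -1.21. Of 285 named genes 282 moved with spike-in and 59 with 75th percentile scaling, 20 with scaling to the median, 53 with no limit, 7 with the limit doubled (171 did not), 0 of 72 over genes with 2 or more spots, 11 with normexp and 13 with the brightest spot. An alternative chosen after seeing the data, comparing the RNAs over spots measured in both, gave 219 genes 2 or more apart, against 238. Dim spots limit what can be seen, since 19226 spots were above background at neither stage.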

Other observations

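In all, 24 genes and transcripts were 2-fold or more apart between stages in opposite directions in the 2 RNAs. Among them were abcc2, akap17a, c6.2, f13a1b, fkbp5, gnmt, hacl1, parvab and quob. Over spots measured in both RNAs the count was also 24, with cyp17a1 among them and f13a1b not.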
